A study of Mus musculus with 6 samples.

Results

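Transcripts of 40 cell cycle genes, 17 that serve DNA replication in S phase and 23 that serve G2 phase and mitosis, were followed across the cells of dissociated CT26 tumors. The genes were named by their known roles, with no measured value in the rule, though earlier results of these data were known. All 40 were among the 31053 genes of the count table. CT26 is a mouse colorectal carcinoma cell line, grown here as tumors in mice, and leukocytes were enriched from the dissociated tumors with beads that bind CD45. Single-cell mRNA was sequenced with the 10x Genomics 3′ v3 chemistry, in which each captured transcript molecule is counted once as a unique molecular identifier (UMI). The study had 3 treatment groups of 2 tumor samples each, given vehicle or a PD-1 GITR-L bispecific antibody at either a low or a high dose. The antibody joins an antibody against the checkpoint receptor PD-1 to the ligand of the costimulatory receptor GITR. By the labels, the high dose was 30 mg/kg, and the low dose was given as 10 mg/kg in one label and as 30 mg/kg in another. The paper that reported these data describes an isotype control and a different dose for its single-cell comparison. The table held 4 libraries, fewer than the samples, named M1, M2, M5 and M6. No label tied a library to a treatment group, so that no treatment comparison was made and the 4 libraries are given one by one.

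A cell that divides copies its DNA in S phase and separates the copies in mitosis. Ahead of S phase, E2F transcription factors switch on the genes of the replication machinery, such as the MCM helicase, the clamp PCNA and the enzymes that make nucleotides. The genes of mitosis are switched on later, largely through B-MYB–FOXM1 complexes at CHR elements, and CCAAT boxes are common in their promoters. Most of their messages are lost soon after division. Ki-67, the product of *Mki67*, is the protein most used to stain dividing cells, T cells in tumors included.

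The 33961 cells carried 12 cell type labels from the deposited annotation, which the authors assigned by likeness of the whole profile to reference populations of sorted mouse cells. The labels were thus not independent of the 40 genes, and differences between labels are given as descriptions. The libraries held 7160 to 10294 cells and from 158337797 to 315577167 UMIs. Stroma was the largest label, with 15687 cells and 27.2% to 61.2% of the cells of a library. Stroma cells held *Ptprc*, the gene of CD45, at 7.47 CPM (UMIs of the gene in 1000000 UMIs of the label), against 463.3 to 1240 in the rest of the 8 labels with most cells, and *Col1a2* at 681 CPM. Stroma may hold CT26 carcinoma cells as well as host cells, and which of its cells were CT26 cells was not tested. Several names departed from their markers. ILC held *Ncr1* at 422 CPM, close to the 450 of NK cells, with *Cd3g* at 314.5, *Cd3d* at 146.3 and *Cd3e* at 75.5 CPM. Myeloid held these CD3 genes at 222.7, 131.2 and 78.0 CPM, so that they were not particular to ILC. NKT held *Foxp3*, the factor of regulatory T cells, at 195.6 CPM and *Klrb1c* at 9.25 CPM. Of 33850 distinct barcodes, 111 occurred in more than 1 library, with 9 to 29 shared by a pair of libraries.

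The promoters of the members were searched for the letters of CHR elements, CCAAT boxes and E2F sites. RefSeq promoters of build GRCm38.p6 were matched for 14 of the 17 S members and 19 of the 23 G2/M members, and the 250 bases before the start site were searched on both strands. A CCAAT box (CCAAT) stood in 17 of 19 G2/M promoters (89.5%) and 10 of 14 S promoters (71.4%), against 33.85% of all 32851 promoters in the table. The CHR element (TTTGAA) stood in 7 G2/M promoters (36.8%) and 2 S promoters (14.3%), against 15.99% of all. All 7 of those G2/M promoters and the 2 S promoters also held a CCAAT box, a pair found in 5.55% of all promoters. An E2F site (TTTCCCGC, TTTCGCGC, TTTGCCGC or TTTGGCGC) stood in 5 S promoters (35.7%) and 1 G2/M promoter (5.26%), against 1.86% of all. A match is a run of letters and not a site of binding. 5 promoters are printed in the direction of their gene, with matches in capitals, because these genes return below. *Mcm5* and *Mcm6* show the E2F letters, with a pair of overlapping matches in each. *Mki67* and *Top2a* show CHR and CCAAT letters together, and *Kif23* shows a single CCAAT box and neither of the others. It shared this make-up with the G2/M members *Plk1*, *Bub1b*, *Cenpe* and *Prc1* and the S members *Pcna*, *Rrm2* and *Uhrf1*.

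Mcm5 (chr8:75109259-75109508, plus strand): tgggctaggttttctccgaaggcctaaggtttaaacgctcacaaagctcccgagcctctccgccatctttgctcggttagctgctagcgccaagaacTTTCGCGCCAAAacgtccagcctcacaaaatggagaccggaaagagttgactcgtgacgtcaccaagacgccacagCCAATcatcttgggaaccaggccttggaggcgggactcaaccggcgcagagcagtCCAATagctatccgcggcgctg

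Mcm6 (chr1:128359706-128359955, minus strand): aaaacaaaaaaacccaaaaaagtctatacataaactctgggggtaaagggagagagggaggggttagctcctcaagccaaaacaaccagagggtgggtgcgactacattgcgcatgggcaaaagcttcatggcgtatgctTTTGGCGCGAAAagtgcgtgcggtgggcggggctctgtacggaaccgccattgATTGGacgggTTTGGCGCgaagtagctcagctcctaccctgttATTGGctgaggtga

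Mki67 (chr7:135716380-135716629, minus strand): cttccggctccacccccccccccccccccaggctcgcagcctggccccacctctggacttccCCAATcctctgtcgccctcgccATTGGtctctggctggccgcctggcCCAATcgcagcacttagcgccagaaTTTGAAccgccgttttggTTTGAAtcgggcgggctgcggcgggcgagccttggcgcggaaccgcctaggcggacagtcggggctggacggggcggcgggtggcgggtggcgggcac

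Top2a (chr11:99024190-99024439, minus strand): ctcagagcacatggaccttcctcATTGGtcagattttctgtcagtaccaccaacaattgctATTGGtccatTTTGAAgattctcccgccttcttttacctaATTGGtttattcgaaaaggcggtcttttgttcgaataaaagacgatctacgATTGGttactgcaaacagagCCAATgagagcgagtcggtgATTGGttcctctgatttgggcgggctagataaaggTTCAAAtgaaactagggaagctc

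Kif23 (chr9:61946800-61947049, minus strand): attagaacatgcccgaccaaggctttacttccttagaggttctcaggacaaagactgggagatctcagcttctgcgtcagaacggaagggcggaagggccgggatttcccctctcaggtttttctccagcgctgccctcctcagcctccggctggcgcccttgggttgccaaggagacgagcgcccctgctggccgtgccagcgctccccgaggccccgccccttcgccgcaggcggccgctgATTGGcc

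Summed over the 23 G2/M members, Stroma and T cell EFF, the label for effector T cells, stood apart from the other labels with many cells. The G2/M members made up 2195 CPM in Stroma and 2032 CPM in T cell EFF. In libraries M1, M2, M5 and M6, the G2/M sum was 2509, 2054, 2079 and 1817 CPM in Stroma and 2189, 2610, 1827 and 1642 CPM in T cell EFF, so that both ranges overlapped. NK cells followed at 1068 CPM, with 1239, 1177, 991.4 and 953.5 CPM, all below every library of Stroma and T cell EFF. These sums weight deep cells more. As the mean of the cells' own shares, the G2/M sum was 1521 CPM in Stroma, 1527 in T cell EFF, 628.6 in NK cells, 613.6 in NKT, 607.8 in ILC and 378.4 in T cell MEM, so that NK cells lay close to NKT and ILC. By summed UMIs, DC, NKT, ILC and Myeloid had pooled G2/M sums between 698.5 and 770.4 CPM, and their library ranges overlapped one another. T cell MEM, the label for memory T cells, had the lowest of the 8 largest labels, 363.1 CPM, with 394.6, 467.6, 326.6 and 365.2 CPM in the libraries.

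The S members gave a similar order with smaller distances. The S sum was 1083 CPM in T cell EFF, 985.6 in Stroma, 746.9 in NK cells, 597.7 in ILC, 493.4 in NKT, 471.3 in DC, 425.3 in Myeloid and 315.6 in T cell MEM. For each S member UMI there were 2.23 G2/M member UMIs in Stroma, 1.88 in T cell EFF, 1.64 in Myeloid, 1.63 in DC, 1.56 in NKT, 1.43 in NK cells, 1.28 in ILC and 1.15 in T cell MEM. Because UMIs were taken from the 3′ ends, a gene is compared between labels and not with other genes.

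**Figure D1:**
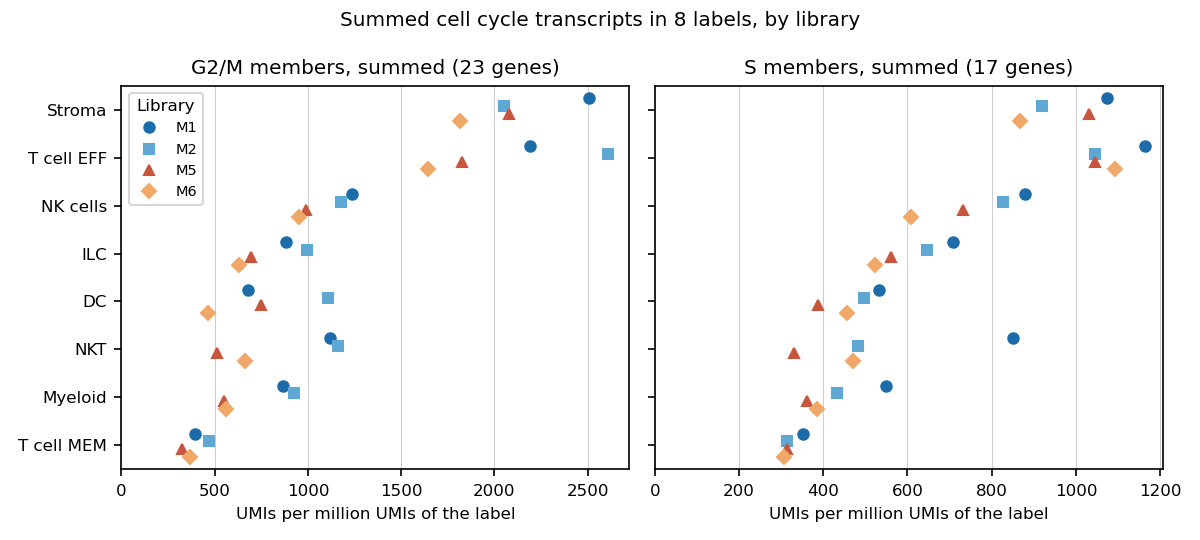
Summed level in CPM of the 23 G2/M members (left) and the 17 S members (right) in the 8 labels with most cells. Each point is 1 library; for G2/M, every library of Stroma and T cell EFF lies at 1642 or above, and every library of T cell MEM at 467.6 or below.

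Among the S members, the genes of nucleotide synthesis and the replication helicase differed in how far they followed the labels. *Rrm2*, the small subunit of ribonucleotide reductase, which is made mainly in S phase, was the S member with the most UMIs. *Rrm2* stood at 110.7, 98.0, 127.5 and 143.0 CPM in T cell EFF in M1, M2, M5 and M6, at 133.4, 114.1, 124.6 and 103.3 in Stroma, and at 9.18, 7.25, 8.78 and 8.24 in T cell MEM. T cell MEM was below all other labels of the 8 in every library for *Rrm2*, and T cell EFF and Stroma overlapped. *Pcna*, the clamp that holds the polymerase and also serves DNA repair, was the other S member with most UMIs and showed the smallest spread of the 40. It stood at 127.3, 106.1, 133.4 and 126.4 CPM in T cell EFF and at 65.2, 54.4, 68.9 and 67.7 in T cell MEM, so that its highest label was 1.88 times its lowest, against 14.3 times for *Rrm2*. The helicase subunits *Mcm2* to *Mcm7* had ratios of highest to lowest label between 2.73 and 4.70. *Cdc6*, which loads the helicase, had one of 38.4, from 14.8 CPM in T cell EFF to 0.385 in T cell MEM, the latter from 4 UMIs. *Ccne1* and *Ccne2*, the E cyclins that start S phase, *Mcm7*, *Cdc45* and *Gins2* were highest in Stroma in all 4 libraries, and *Mcm2*, *Mcm3*, *Mcm4*, *Mcm5*, *Cdc6*, *Pcna*, *Rrm1* and *Hells* were highest in T cell EFF in all 4.

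Among the G2/M members, *Ube2c*, the ubiquitin-conjugating enzyme of the anaphase promoting complex, and *Top2a*, the topoisomerase that untangles sister chromosomes, had the most UMIs. *Ube2c* was at 424.2, 328.7, 345.1 and 319.9 CPM in Stroma, at 228.2, 294.4, 183.9 and 135.7 in T cell EFF and at 31.2, 23.6, 19.9 and 19.6 in T cell MEM. The 3 ranges did not overlap, with Stroma highest in each library. *Top2a* had the opposite order at the top, with 288.8, 300.8, 233.1 and 254.1 CPM in T cell EFF against 209.8, 184.8, 192.7 and 156.0 in Stroma. *Top2a* in T cell MEM was at 24.8 CPM pooled, with 21.9 in the lowest library and a median of 25.9, far below either. *Mki67* was at 200.8, 245.7, 184.9 and 181.8 CPM in T cell EFF, at 117.3, 97.1, 91.7 and 79.0 in NK cells, at 78.4, 71.2, 85.4 and 64.9 in Stroma and at 12.9, 12.7, 18.5 and 18.5 in T cell MEM. T cell EFF was above every other label of the 8 in every library for *Mki67*, NK cells and Stroma overlapped, and T cell MEM was lowest. *Kif20a*, a kinesin of the dividing cell's midzone, had the largest ratio of highest to lowest label, 55.0, from 37.0 CPM in Stroma to 0.673 in T cell MEM, the latter from 7 UMIs.

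Most other members had T cell MEM as the lowest of the 8 labels, and *Cenpa* and *Kif23*, which did not, are described further on. Among the cyclins and their kinase, the ratio of highest to lowest label was 33.7 for *Ccna2*, 17.35 for *Ccnb2*, 16.6 for *Ccnb1* and 18.6 for *Cdk1*, which stood at 157.5 CPM in Stroma and 8.46 in T cell MEM. *Plk1*, a kinase of mitotic entry, had a ratio of 36.0. *Aurkb* and *Birc5*, both of the chromosomal passenger complex, had 22.9 and 23.4, and *Aurka* had 12.9. The checkpoint kinases *Bub1* and *Bub1b* had 34.8 and 21.45, and the kinetochore genes *Cenpe* and *Cenpf* 20.2 and 25.8. The spindle genes ran from 8.22 for the motor *Kif11* through 12.8 for *Prc1* and 20.8 for *Nusap1* to 34.1 for *Tpx2*. Smaller ratios were the rule among the S members, with 3.29 for the chromatin remodeller *Hells*, 3.63 for *Rrm1*, the large subunit of ribonucleotide reductase, 5.14 for *Tyms*, thymidylate synthase, and 7.11 for *Uhrf1*, which keeps up DNA methylation. *Gins2* and *Cdc45*, partners of the active helicase, had 6.08 and 11.5.

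**Figure D2:**
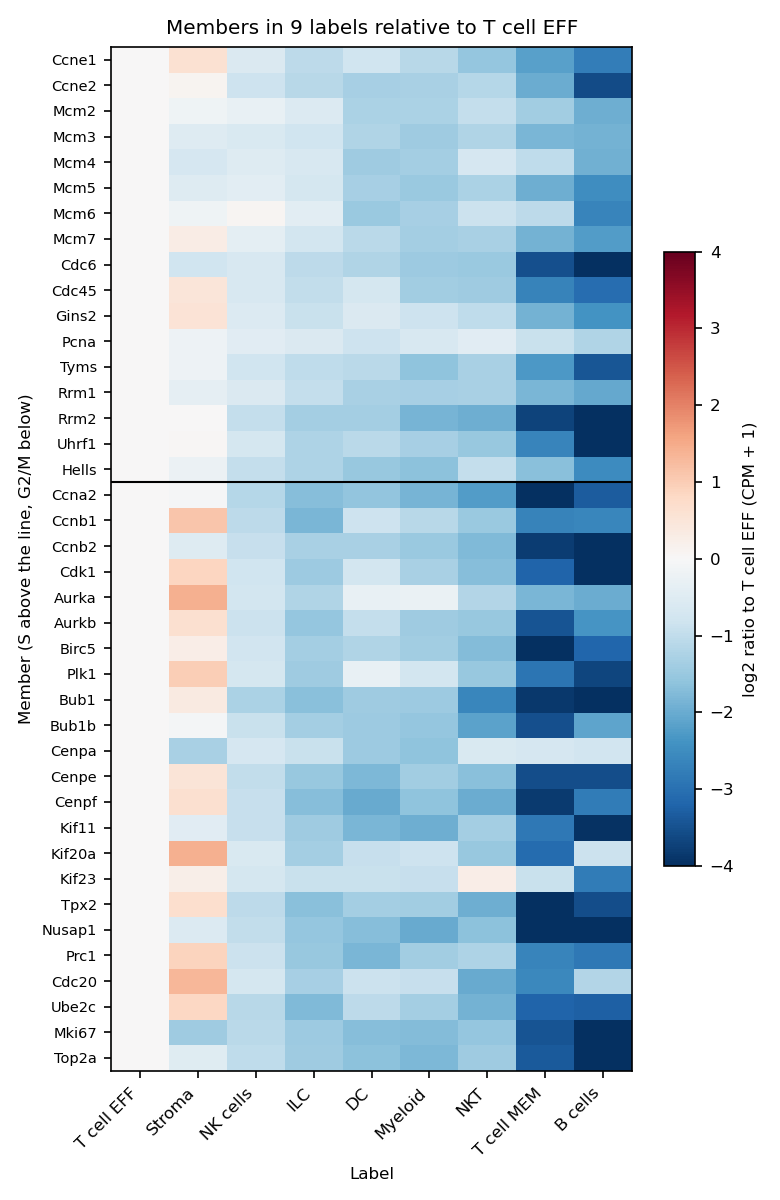
Each row is 1 of the 40 members and each column a label; color gives the log2 ratio of the pooled CPM to that in T cell EFF, with 1 CPM added, on a scale that ends at 4 in both directions. The *Cenpa*, *Kif23* and *Pcna* rows stay pale in T cell MEM, where T cell EFF stood above T cell MEM by log2 ratios of 0.68, 0.89 and 0.90, while most G2/M rows there are dark; B cells rest on 124 cells.

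Levels summed over cells do not say how many cells carried several of these transcripts at once. Each cell was therefore thinned at random to 2000 UMIs, cells with fewer were left out, and a cell with UMIs of 2 or more different G2/M members was called G2/M-positive. By this measure 36.9% of T cell EFF cells (95% exact binomial interval 35.3 to 38.5, 1308 of 3545) and 33.8% of Stroma cells (33.0 to 34.5, 5281 of 15642) were positive. The intervals cover counting error only. NKT at 17.8%, ILC at 17.1%, NK cells at 15.8%, Myeloid at 15.7% and DC at 14.8% had overlapping intervals. T cell MEM followed at 10.85% (9.11 to 12.8), an interval that overlapped that of DC. S-positive cells, with 2 or more S members, made up 35.8% of T cell EFF, 33.0% of Stroma, 20.8% of NK cells, 20.2% of ILC and 11.7% of T cell MEM. Cells positive for both lists made up 21.5% of T cell EFF, 19.96% of Stroma, 6.76% of NK cells and 1.57% of T cell MEM.

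The share in T cell MEM rested on cells at the limit. Of its 124 positive cells, 105 had exactly 2 G2/M members, and 78 of those 105 (74.3%) held a UMI of *Cenpa*. Among cells with exactly 2 members this share was 73.75% in NKT, 66.8% in NK cells, 66.2% in ILC, 62.5% in T cell EFF and 19.5% in Stroma. With 5 or more members required, a limit chosen after the data were seen, Stroma had 19.6%, T cell EFF 16.7%, DC 6.12%, NK cells 4.91%, ILC 4.89%, Myeloid 3.77% and NKT 2.52% of cells. In T cell MEM 1 of 1143 cells passed, and in B cells 0 of 112 did, which allows a share of up to 2.68% of cells when 3 cells are taken as the limit of a count of 0 (exact upper bound 3.24%). The median total was 6280 UMIs in T cell MEM, 2811 in B cells, 10049 in T cell EFF and 40692 in Stroma before thinning.

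**Figure D3:**
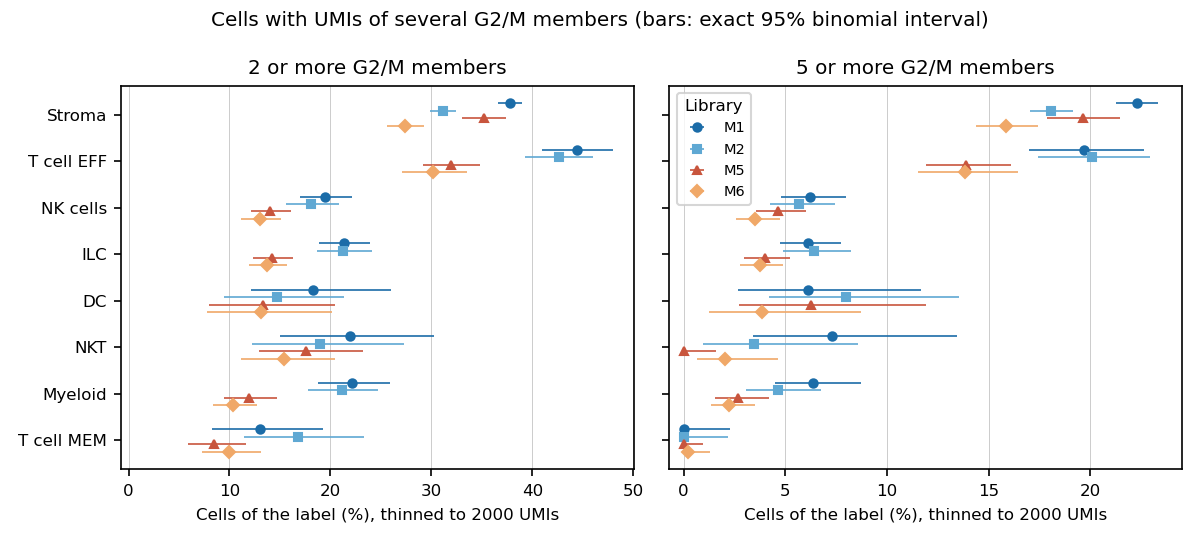
Share of cells with UMIs of 2 or more (left) and 5 or more (right) of the 23 G2/M members after thinning to 2000 UMIs, per library; bars are exact 95% binomial intervals. At 2 or more members, M1 and M2 lie to the right of M5 and M6 in every label shown but Stroma; at 5 or more members, 1 of 1143 T cell MEM cells passed.

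The libraries differed within labels. In T cell EFF, 44.4%, 42.6%, 31.9% and 30.2% of cells were G2/M-positive in M1, M2, M5 and M6. NK cells had 19.5%, 18.1%, 14.0% and 13.1%, ILC 21.3%, 21.3%, 14.2% and 13.7%, and Myeloid 22.2%, 21.1%, 11.9% and 10.4%. In 7 of the 8 labels both M1 and M2 lay above both M5 and M6, while Stroma had 37.8%, 31.1%, 35.2% and 27.4%. With 5 or more members required, this order was found in 5 of the 8 labels and not in Stroma, DC or T cell MEM. M1 and M2 were also the libraries with most Stroma cells, 61.2% and 57.1% against 27.2% and 30.9%. Their T cell EFF cells held more transcripts of a list of 12 genes of mesenchymal or CT26 cells, here called mesenchymal. These made up 711.0 and 508.5 CPM against 252.0 and 470.3. Cells with no UMI of that list after thinning may still hold some at full depth. Among them, 42.9%, 42.2%, 32.1% and 30.4% of T cell EFF, 20.5%, 19.8%, 14.2% and 13.2% of NK cells and 21.4%, 22.2%, 13.5% and 13.9% of ILC were positive. NKT had 22.7%, 18.3%, 18.95% and 14.15%. The part of Stroma RNA in the difference was not tested. Since the treatment of each library is unknown, the difference is given as a description.

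T cell EFF and T cell MEM, both of which held *Cd3g* at 1600 CPM or above, differed in nearly all members. A gene was counted as past a 2-fold limit when its pooled log2 ratio, with 1 CPM added, exceeded 1 in size with the same sign in all 4 libraries, among genes of at least 10 CPM in one of the labels. Of the 40 members, 37 were higher in T cell EFF and none lower, against 5.3% and 1.95% of the 8043 genes compared. All 40 were higher in T cell EFF in every library, as were 29.7% of genes. The median log2 ratio was 1.89 for the S members and 3.37 for the G2/M members, against -0.03 for all genes. *Pcna* (0.90), *Kif23* (0.89) and *Cenpa* (0.68) did not pass the limit. Among related genes listed apart from the members, 19 of 26 other S phase genes, 31 of 37 other G2/M genes, 9 of 15 G1 regulators and 1 of 5 CDK inhibitors compared were past the limit, all higher in T cell EFF.

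T cell EFF stood above NK cells by less. 7 members passed the limit, all G2/M genes and all higher in T cell EFF, against 5.71% of 7999 genes higher and 3.31% lower. They were *Bub1*, a kinase of the spindle checkpoint, at 1.25, *Ccna2*, cyclin A2, at 1.13, *Ube2c* at 1.11, *Mki67* at 1.08, *Ccnb1*, cyclin B1, at 1.04, *Tpx2*, a spindle assembly factor, at 1.04, and *Top2a* at 1.02 on the log2 scale. With no limit on size, 38 of 40 members were higher in T cell EFF in every library, as were 39.7% of genes, and the exceptions were *Ccne1* and *Mcm6*. The median log2 ratio was 0.57 for the S members and 0.91 for the G2/M members, against 0.07 for all genes.

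ILC lay below NK cells in pooled levels, though not in shares of positive cells, which were 21.3%, 21.3%, 14.2% and 13.7% in ILC against 19.45%, 18.1%, 14.0% and 13.05% in NK cells. No member passed the 2-fold limit in either direction, against 3.52% of 7761 genes higher and 0.116% lower in ILC. Of 35 members with enough UMIs, 34 were lower in ILC in every library, as were 20.3% of genes, with a median log2 ratio of -0.42 against 0.00 for all genes. The exception was *Mki67*, whose ratio ran from -0.62 to 0.04 over the libraries. ILC cells with a CD3 transcript after thinning were G2/M-positive in 17.25% of 1397 cells and those without in 17.04% of 3122, with overlapping intervals (15.3 to 19.3 and 15.7 to 18.4). Myeloid cells lay further down, with 33 members lower than in T cell EFF and none higher, against 8.29% and 13.3% of 8446 genes, and a median log2 ratio of -1.39 against -0.17. *Aurka*, the kinase of spindle poles, was the member of smallest difference there, with 9.61 CPM in Myeloid and 11.8 in T cell EFF.

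Stroma and T cell EFF had similar sums, and few members differed between them past the 2-fold limit. Of the 40 members, 4 were past the limit in the direction of Stroma and 2 in that of T cell EFF, below the shares of all 8701 genes, 16.1% and 19.3%. The members higher in Stroma were *Kif20a* at 37.0 against 13.1 CPM, *Aurka* at 33.4 against 11.8, *Cdc20*, an activator of the anaphase promoting complex, at 95.8 against 37.2, and *Ccnb1* at 71.8 against 33.0. *Mki67*, at 74.8 against 200.5 CPM, and *Cenpa*, the histone variant of centromeres, at 134.1 against 332.5, were higher in T cell EFF. Thus 0.204 UMIs of *Mki67* were counted for each UMI of *Ube2c* in Stroma, with 0.185 to 0.248 over the libraries. This ratio was 0.613 in DC, 0.746 in Myeloid and 0.811 in T cell MEM. In T cell EFF it was 0.972, in NK cells 0.993, and in ILC and NKT 1.22. Over the libraries the ratio ran from 0.429 to 1.05 in DC, 0.644 to 1.06 in Myeloid and 0.412 to 0.947 in T cell MEM. It ran from 0.835 to 1.34 in T cell EFF and from 0.876 to 1.12 in NK cells. These ranges overlapped one another, and all lay above that of Stroma. The median log2 ratio of Stroma to T cell EFF was 0.51 for the G2/M members and -0.17 for the S members.

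**Figure D4:**
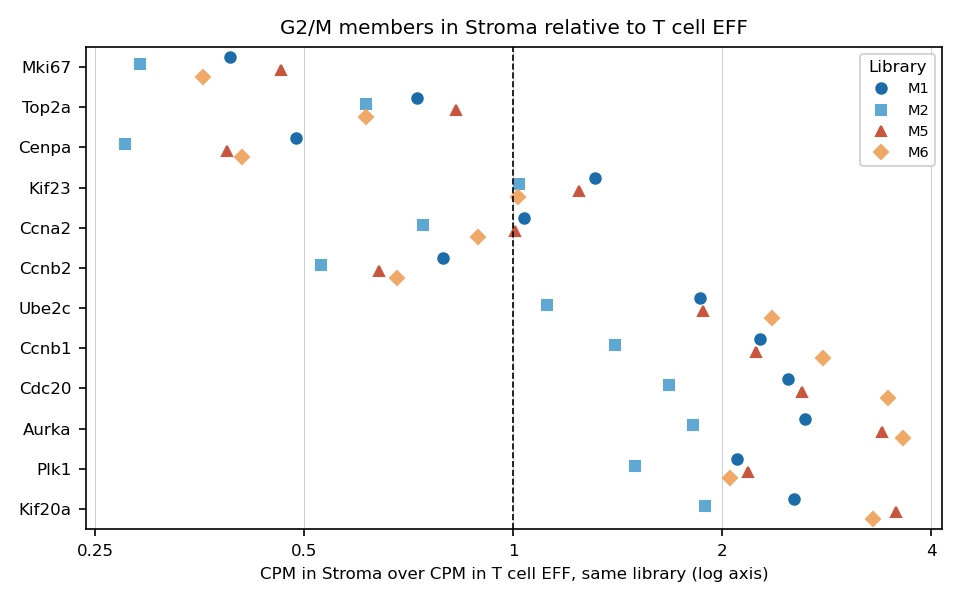
CPM in Stroma divided by CPM in T cell EFF of the same library for 12 G2/M members, on a log axis; each point is 1 library and the dashed line marks equal levels. *Mki67*, *Top2a*, *Cenpa* and *Ccnb2* lie left of the line in all 4 libraries. *Ccnb1*, *Cdc20*, *Aurka*, *Plk1*, *Kif20a*, *Ube2c* and, by little, *Kif23* lie right of it in all 4.

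Transcripts of the 12 mesenchymal genes were also counted in the leukocyte labels. Beside each UMI of the 12 mesenchymal genes there were 0.716 UMIs of G2/M members in Stroma, 4.41 in T cell EFF, 4.82 in NK cells, 4.998 in NKT, 2.63 in T cell MEM, 2.18 in ILC, 1.71 in Myeloid and 1.57 in DC. Over the libraries this ratio ran from 0.584 to 0.822 in Stroma and from 0.870 in M1 to 3.41 in M6 in DC. The part of released Stroma RNA in the leukocyte values was not tested. Cells that held any UMI of the mesenchymal list after thinning were then left out, though those kept may hold some at full depth. In M1, M2, M5 and M6, 117, 109, 82 and 67 Stroma cells remained, of which 46.15%, 39.45%, 30.5% and 29.85% were G2/M-positive. In Myeloid 14.1% were.

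In 4 members, *Cenpa*, *Kif23*, *Mcm4* and *Mcm6*, either the highest of the 8 labels was neither Stroma nor T cell EFF, or the lowest was not T cell MEM. *Cenpa* stood at 330.3, 436.2, 313.8 and 266.9 CPM in T cell EFF, 200.4, 209.2, 224.5 and 224.6 in NKT, 204.6, 286.4, 179.8 and 217.4 in T cell MEM and 198.8, 217.1, 199.8 and 210.6 in NK cells. Its level in T cell MEM thus overlapped those of NKT and NK cells, and Myeloid had the lowest, 109.0 CPM. Without *Cenpa* the G2/M sum of T cell MEM was 155.4 CPM instead of 363.1, and that of Stroma 2060 instead of 2195. No other annotated gene overlaps *Cenpa*, at chr5:30666777-30674830 on the plus strand (GENCODE M21, GRCm38).

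*Kif23*, a kinesin of the central spindle that is needed for the final cut between daughter cells, was highest in NKT. It stood at 28.8 CPM in the lowest and 55.1 in the highest library of NKT with a median of 42.8, at 50.4, 39.6, 44.9 and 37.1 in Stroma and at 38.4, 38.8, 36.1 and 36.5 in T cell EFF, and these ranges overlapped. T cell MEM had 9.18, 16.3, 17.8 and 25.5 CPM, below NKT in every library. Within NKT, cells with a *Foxp3* UMI held *Kif23* at 68.7 CPM and those without at 27.1, with 57.3 against 24.1, 33.9 against 37.5, 78.2 against 29.4 and 70.0 against 21.6 in the 4 libraries. M5 and M6 held 113 NKT cells with *Foxp3* each, and other members are given within them. *Mki67* was at 39.1 against 29.4 CPM in M5 and 64.9 against 37.7 in M6, and *Cenpa* at 266.1 against 171.2 and 278.6 against 160.2, each higher with *Foxp3*. M1 and M2 held 20 and 31 such cells. There *Mki67* was at 200.4 against 113.7 and 129.8 against 93.7 CPM. *Cenpa* was at 267.2 against 186.1 CPM in M1 and, in the reverse order, at 146.7 against 236.6 in M2. Pooled, 2.23% of NKT cells with *Foxp3* and 2.52% of those without held 5 or more G2/M members. *Kif20a* had no UMI with and 3.46 CPM without *Foxp3* in M5, and 5.09 against 2.69 CPM in M6. Within T cell EFF, cells with *Foxp3* held *Kif23* at 46.2 against 38.5 CPM in M2, 45.1 against 33.7 in M5 and 46.4 against 34.25 in M6. The order was the reverse in M1, 7.37 against 39.5. M1 and M2 held 24 and 21 T cell EFF cells with *Foxp3*. In T cell EFF *Mki67* was at 203.3 against 180.1 and 195.3 against 178.7 CPM in M5 and M6. *Cenpa* was at 285.9 against 320.9 and 272.0 against 265.6, and *Kif20a* at 9.36 against 9.85 and 8.92 against 9.11. The gene lies at chr9:61915905-61946774 on the minus strand, and no other annotated gene overlaps it.

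*Mcm6*, a helicase subunit, was as high in NK cells as in T cell EFF, with 105.0, 109.2, 87.0 and 81.6 CPM against 102.8, 91.5, 82.6 and 84.7. The log2 ratio of T cell EFF to NK cells was -0.06 and ran from -0.25 to 0.05 over the libraries. *Mcm4*, of the same helicase, was lowest in DC, with 25.4, 23.2, 14.3 and 28.6 CPM, which overlapped the 34.9, 19.0, 29.8 and 33.2 of T cell MEM. 10 members overlap another counted gene on the opposite strand (*Ccne2*, *Mcm7*, *Cdc45*, *Gins2*, *Ccna2*, *Kif20a*, *Nusap1*, *Prc1*, *Cdc20* and *Ube2c*), and *Cenpa*, *Kif23*, *Mcm4*, *Mcm6* and *Mki67* are not among them.

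Whether the members were found in the same cells was read from thinned cells sorted by the other G2/M members. In T cell EFF, *Top2a* was detected in 9.22% of cells with none of the other 22 G2/M members and in 52.0% of those with 2 or more. *Mki67* was detected in 5.07% and 42.7% of the corresponding cells. Over the 23 G2/M members the median ratio of the second share to the first was 11.8 in T cell EFF, 13.2 in NK cells, 22.4 in Stroma, 11.75 in ILC and 11.8 in Myeloid. A member with a high first share cannot reach a large ratio. Genes outside the members were not sorted in this way. In T cell MEM the median ratio was 1.06 over the 22 members with a ratio, from 0 for *Ccnb2* to 9.83 for *Cenpf*. No more than 124 T cell MEM cells held 2 or more others.

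*Cenpa* had the lowest ratio of the G2/M members in T cell EFF, NK cells, ILC and Myeloid. It was detected in 36.5% of T cell EFF cells with no other G2/M member and in 53.7% of those with 2 or more, a ratio of 1.47. In NK cells these shares were 24.2% and 43.2%, and in T cell MEM 29.5% and 32.6%. In Stroma they were 2.69% and 35.0%, so that *Cenpa* there went with the other members.

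The S members had lower ratios than the G2/M members, except in T cell MEM. The median ratio of the S members was 2.54 in T cell EFF, 3.27 in NK cells and 2.95 in Stroma. In T cell MEM it was 1.18, against 1.06 for the G2/M members. *Rrm2* had the highest in T cell EFF, at 2.49% and 26.6% of cells, a ratio of 10.7, and *Pcna* the lowest, at 14.4% and 24.2%. Deep cells have more chances of both transcripts, and thinning to 2000 UMIs sets all cells to the same depth.

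**Figure D5:**
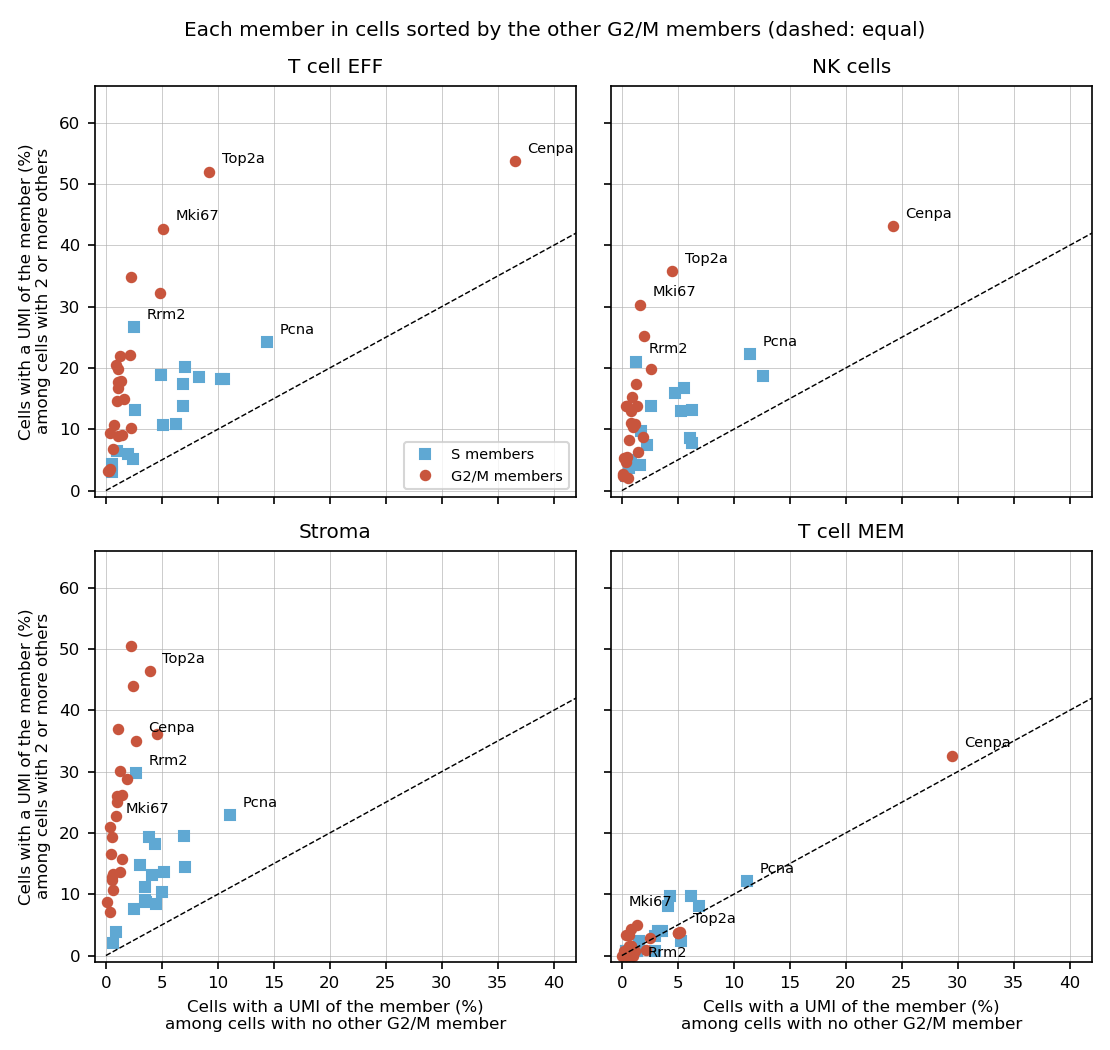
Share of cells with a UMI of each member among cells with no other G2/M member (x axis) and with 2 or more others (y axis), in 4 labels after thinning; the dashed line marks equal shares. In T cell EFF *Mki67* lies at 5.07% and 42.7%, whereas in T cell MEM most members lie near the line and *Cenpa* at 29.5% and 32.6%.

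Sorting by *Mki67* alone gave the same direction for most members, with another order of labels. Genes detected in few *Mki67*-positive and few *Mki67*-negative cells were left out of the shares of genes given here. In T cell EFF, 664 cells were *Mki67*-positive and 2881 were not. All 22 other G2/M members were detected more often in the positive cells in every library, as were 13.9% of the 9341 genes compared. The same held for 22 of 22 in NK cells against 10.5% of genes, 22 of 22 in Stroma against 18.8%, 20 of 22 in ILC against 10.7% and 18 of 22 in Myeloid against 6.94%. The median ratio was 11.0 in NK cells, 7.61 in ILC, 4.89 in T cell EFF, 3.785 in Stroma and 3.425 in Myeloid. Stroma thus lay below T cell EFF here, while it lay above T cell EFF when cells were sorted by the other members. Of the 17 S members, 15 were detected more often in every library in T cell EFF and NK cells, and 5 in Myeloid.

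Beyond the members, the G2/M-positive cells of T cell EFF were compared with the 1123 cells that held no G2/M member after thinning. 35 of 37 other G2/M genes, 17 of 27 other S phase genes and 10 of the 17 S members were past the 2-fold limit, all higher in positive cells, against 3.69% of 7935 genes higher and 0.164% lower. The 10 genes with the largest ratio in their lowest library began with *Aspm*, a spindle pole protein, at 61.7 against 1.999 CPM, *Hmmr*, a spindle protein, at 81.0 against 2.37, *Kif4*, a chromosome-bound kinesin, at 51.4 against 2.67 and *Shcbp1* at 52.4 against 2.15. They went on with *Cdca8*, of the chromosomal passenger complex, the histone gene *Hist1h1b*, *Hist1h2ap*, *Cdca3*, *Knl1* and *Hist1h2ae*, of which *Hist1h2ae* had the smallest value in a library, a log2 ratio of 2.99. Of 20 T cell state genes compared, none was past the limit upwards and 2 downwards, *Ifng*, the gene of interferon gamma, at 276.4 against 644.7 CPM and *Ccr7*, a homing receptor, at 239.4 against 498.0. The *Ifng* log2 ratio was -0.10, -0.35, -1.45 and -1.33 in the libraries, so that it was larger in M5 and M6. *Gzmb* was at 2165 against 2625 CPM, *Pdcd1*, the gene of PD-1, at 518.0 against 578.6 and *Tnfrsf18*, the gene of GITR, at 301.2 against 365.6, none past the limit. The genes most evenly lower in positive cells included *Ly6c2* (249.1 against 423.8 CPM), *Hcst* (153.3 against 252.8) and *Ccnd2*, cyclin D2 (188.9 against 288.2).

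In NK cells, 34 of 36 other G2/M genes and 14 of the 17 S members were past the limit, all higher in the 666 positive cells than in the 2263 without a member, against 4.73% of genes higher and 0.22% lower. None of the 12 NK effector and maturation genes passed, and their median log2 ratio was -0.33, against -0.0038 for all genes but the members. *Gzma* was at 13320 against 16090 CPM and *Prf1*, perforin, at 1551 against 1926. *Ccl5*, a chemokine gene, was at 1460 against 3224 CPM. In Stroma, all 39 other G2/M genes and 12 of the 17 S members were higher, against 5.27% of genes higher and 2.06% lower. There *Aspn*, at 10.6 against 152.2 CPM, and *Ogn*, at 26.7 against 258.1, genes of the extracellular matrix, were lower in positive cells, as were 4 of 10 genes of the mesenchymal list.

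Positive cells were also deeper before thinning. Median totals were 14410 against 8963 UMIs in T cell EFF, 9298 against 5656 in NK cells and 61080 against 33180 in Stroma. Cells over a doublet score of 0.25 made up 4.66% of positive and 3.12% of member-free T cell EFF cells, and 2.55% against 0.751% of NK cells. The 10 macrophage genes summed to 1149 against 598.5 CPM in T cell EFF and to 1505 against 2196 in NK cells, and the mesenchymal genes to 446.6 against 544.0 and to 347.5 against 171.2. Past the 2-fold limit were 3 of 9 macrophage genes compared in T cell EFF and 2 of 7 mesenchymal genes in NK cells, higher in positive cells, and 1 of 8 mesenchymal genes in T cell EFF, lower in positive cells. The part of these in the differences was not tested.

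Genes that set entry into the cycle were partly ordered like the members. *E2f1*, an activator of S phase genes, was at 43.2 CPM in Stroma, 25.9 in T cell EFF, 20.5 in NK cells and 7.02 in T cell MEM, and *E2f8*, a late E2F repressor, at 29.2, 15.6, 7.81 and 1.54. *Ccnd1*, cyclin D1, was at 516.3 CPM in Stroma, 85.3 in T cell EFF and 27.4 in T cell MEM, its kinase partner *Cdk4* at 351.0, 151.6 and 65.0, and *Myc*, a growth transcription factor, at 117.1, 24.0 and 11.0. *Ccnd2* had the reverse order, 127.8 CPM in Stroma, 236.4 in T cell EFF and 284.6 in T cell MEM. *Rbl2*, a pocket protein of resting cells, was at 8.59 CPM in Stroma, 103.7 in T cell EFF and 119.2 in T cell MEM. Among the inhibitors of cyclin-dependent kinases, *Cdkn1b* was at 191.4 CPM in NKT and 146.0 in T cell MEM, against 88.7 in T cell EFF and 15.1 in Stroma. *Cdkn1a* was highest in Myeloid at 584.4 CPM, with 328.5 in Stroma and 130.3 in T cell EFF. *Cdkn2a* was at 0.299 CPM in Stroma and 15.0 in T cell EFF.

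Cells were also picked by transcripts in place of labels, within the T cell and NKT labels. These transcripts were read before thinning, and all picked cells held a CD3 UMI. Cells counted for CD8 held no *Cd4* or *Foxp3* UMI, while cells counted for *Foxp3* could hold CD8 or *Cd4*. Of cells with a CD8 transcript, 31.3% were G2/M-positive (29.8 to 32.8, 1164 of 3724). Of cells with a *Foxp3* transcript, 24.7% were (21.8 to 27.7, 211 of 855), and of cells with *Cd4* but neither *Foxp3* nor CD8, 15.8% (12.3 to 19.9, 61 of 385). The libraries held these cells in different numbers, with 382 and 357 of the 855 *Foxp3* cells in M5 and M6, where shares were low. Within libraries M1, M2, M5 and M6, 39.9%, 39.0%, 24.8% and 22.9% of cells with a CD8 transcript were positive, against 34.7%, 23.9%, 25.4% and 22.7% of those with *Foxp3*. The CD8 and *Foxp3* shares thus had overlapping intervals in M1, M5 and M6, and *Foxp3* cells were the higher in M5. Cells with *Cd4* alone had 21.8%, 17.02%, 14.2% and 14.7%, the lowest of the 3 in every library, with intervals that overlapped those of *Foxp3* cells in all 4. The pooled median totals were 9186, 6660 and 5128 UMIs for CD8, *Foxp3* and *Cd4* alone. Among cells with a CD8 transcript, 36.4% were positive in T cell EFF and 9.65% in T cell MEM.

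The smallest labels gave wide intervals. Stem cells, 37 cells, had the highest G2/M sum of all 12 labels, 3074 CPM, and 29 of 36 were G2/M-positive (80.6%, 64.0 to 91.8). They held *Cald1* at 336.4 CPM, *Col1a2* at 184.4 and *Ptprc* at 66.4, and 0.141 UMIs of *Mki67* for each of *Ube2c*, next to the 0.204 of Stroma. 5 of the 29 positive cells (17.2%) were over the doublet score. B cells had a G2/M sum of 336.5 CPM, of which 142.3 remained without *Cenpa*, and T cell Naive 413.4 and 124.0. T cells, 203 cells with *Foxp3* at 239.4 CPM, had 766.1 CPM with and 455.8 without *Cenpa*.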

How the data were processed

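Single-cell mRNA-seq was made with 10x Genomics 3′ v3 libraries. Per the labels' processing notes, Cell Ranger 3.0.2 and build mm10 (GRCm38) were used. The deposited table by the authors holds UMI counts, neither normalized nor filtered further here, and a second table gives the library and the label of the cells. All 33961 cells were kept, 3787 of them over 10% mitochondrial UMIs. The members and gene lists were chosen with earlier results of these data known.

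UMIs were summed per label and library and divided by the label's UMIs (CPM). Shares of cells used 2000 UMIs per cell, drawn without replacement (seed 1). Intervals are exact (95%) and cover counting error only. Labels were compared without tests, since they were not independent of the members and libraries tied to no sample were not taken as replicates. Doublet scores came from scrublet in scanpy 1.11.5 (expected rate 0.06), whose automatic threshold called 0 cells in M5, so a score of 0.25 was used (606 cells in all); no cell was removed. Named genes were all members, with library values for the 2 members of each list with most UMIs, *Mki67* and members whose label order departed, and the 10 other genes with the largest and the most negative evenly shared ratio in positive T cell EFF cells of at least 50 CPM; in NK cells and Stroma, genes from the same rule were picked after their values were seen. Alternatives were another depth, limit, pseudocount and filter, and leaving out cells or a library. Limits of 5 members, the removal of *Cenpa*, sorting by the other members, the ratio of *Mki67* to *Ube2c* and *Kif23* by *Foxp3* were added after the data were seen. The work ran under Python 3.11.15 with pandas 2.3.3, scipy 1.17.1, numpy 2.4.6 and matplotlib 3.10.9, and the counting steps were tested on simulated data.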

Additional observations from a re-analysis of the deposited data

How the results depend on the processing

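No paired analysis was possible because the replicate numbers of the labels belong to samples to which no library could be tied. Ratios between cell labels were instead taken within each library. Shares of G2/M-positive cells depended on depth and limit, in the order Stroma, T cell EFF and NK cells: 25.7%, 25.8% and 8.98% at 1000 UMIs, 42.5%, 52.15% and 29.2% at 4000 UMIs, and 81.7%, 73.3% and 40.4% without thinning, where Stroma passed T cell EFF. They were 49.9%, 68.3% and 46.35% with 1 or more members, 27.5%, 25.1% and 7.94% with 3 or more, 19.6%, 16.7% and 4.91% with 5 or more, and 32.55%, 29.5% and 10.55% without *Cenpa*, so that T cell EFF lay above Stroma only at some limits. Cells with no UMI of the mesenchymal list after thinning gave 37.9% for Stroma, from few cells. Leaving out cells over 10% mitochondrial UMIs gave 35.0% for T cell EFF. With a library left out, the shares ran from 31.05% to 35.0% in Stroma and from 34.7% to 39.1% in T cell EFF.

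G2/M sums were 1521, 1527 and 628.6 CPM as the mean of the cells' own shares, 2211, 2051 and 1082 without cells over 10% mitochondrial UMIs, 2201 in Stroma and 1057 in NK cells without cells of high doublet score, and 2060, 1700 and 861.8 without *Cenpa*. With a library left out they ran from 1997 to 2267, from 1881 to 2145 and from 1026 to 1112 CPM. The counts of members past the 2-fold limit stayed within 1.5 times under a pseudocount of 0.1 CPM, no filter on low values and the removal of cells of high doublet score. The causes were not tested. The 3 smallest labels are limited by their 37 to 124 cells.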
